A study of Homo sapiens with 6 samples.

Results

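The interferon-stimulated genes are genes that cells switch on when interferon binds its receptor. The list held 59 names, and a gene was a member if its name in the deposited gene table was on the list. These names matched 58 of the 62703 genes in the table, because DDX58 and RIGI name the same gene and the table used DDX58. The data were RNA-seq of PANC-1, a human cell line from a pancreatic ductal adenocarcinoma. The WT group of 3 libraries came from DKK1-SE+/+ cells and the other group of 3 from DKK1-SE-/- cells, labelled DKK1-SE-KO. In the DKK1-SE-/- cells CRISPR/Cas9 had removed e1, a component enhancer of the DKK1 super-enhancer, a deletion that the study calls homozygous. The study obtained a single DKK1-SE-/- clone, so the 3 DKK1-SE-/- libraries are replicates of 1 clone, and the edit and other differences of that clone cannot be told apart. All cells grew in DMEM with fetal bovine serum, and the labels name no interferon treatment. The question was whether IFIT1 fell alone in DKK1-SE-/- cells or together with the rest of the interferon programme.

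Interferons are secreted proteins that cells release when their sensors meet viral RNA or DNA. Type I interferons bind the receptor made of IFNAR1 and IFNAR2, and type III interferons (interferon lambda) bind IFNLR1 with IL10RB. Both receptors act through the kinases JAK1 and TYK2 to activate a complex that holds STAT2 and IRF9 and binds a DNA element with paired GAAA half-sites in the promoters of its target genes. The products of these genes block viral translation, degrade RNA, trap viruses at membranes or tag proteins with the ubiquitin-like modifier ISG15, and many tumour lines express some of them at rest.

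The total expected count of each WT library was 21822314, 16475810 and 18803154, and that of each DKK1-SE-/- library was 17359835, 20098086 and 17804764. Mitochondrial genes took 5.48%, 6.38% and 6.28% of the counts in the WT libraries and 8.58%, 7.31% and 7.40% in the DKK1-SE-/- libraries. This share was higher in each DKK1-SE-/- library than in each WT library, and its part in the results was not tested. DKK1, the target of the deleted enhancer, stood at 229, 246 and 199 TPM, a level scaled for gene length and library size, in WT and at 66.8, 79.8 and 82.7 TPM in DKK1-SE-/- cells. Each of the 3 DKK1-SE-/- libraries lay below each WT library, with a log2 fold change of -1.45 (SE 0.112, edgeR adjusted p = 6.16e-06).

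The epithelial keratins KRT8, KRT18, KRT19 and KRT7 were present in every library, with KRT8 the most abundant. Their summed level was 1841, 1883 and 1919 TPM in WT and 3144, 3086 and 2657 TPM in DKK1-SE-/- cells, and 3 of the 4 were called higher (75%, against 19.8% of all tested genes). The leukocyte markers PTPRC, CD3E and CD14 summed to 0.62, 0.28 and 0.51 TPM in WT and to 1.08, 1.6 and 1.5 TPM in DKK1-SE-/- cells. CD14 made up most of that sum and was called higher (log2 fold change 1.76, SE 0.398, edgeR adjusted p = 0.00539), while PTPRC and CD3E had 0 counts in each WT library. The endothelial markers PECAM1, VWF and CDH5 summed to at most 0.22 TPM in any library. Whether the marker shifts bear on the members was not tested.

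Of the 58 members, 44 passed the filter on low counts and were tested in the fit over 15179 genes. In DKK1-SE-/- cells 15 members were called lower (34.1% of those tested, against 19.5% of all tested genes) and 14 were called higher (31.8%, against 19.8%), where called means an adjusted p under 0.05. With a stricter second rule, an unadjusted p under 0.05 and a log2 fold change of at least 1.2 in size, 9 members were lower (20.5%, against 3.70% of all tested genes) and 7 were higher (15.9%, against 4.96%). The median log2 fold change was -0.16 over the tested members and 0.03 over all tested genes, and the member median was -0.16 also with OAS2, which had 1 count in DKK1-SE-/- cells, placed at the near end of its counting interval. The sign of the member median depended on GC content: with an offset for it the median was 0.03 over the members and 0.01 over all tested genes. Without WT replicate 2 the member median was -0.23. The TPM values of the 2 genotypes did not overlap for 18 tested members that were lower (such genes made up 26.7% of all tested genes) and for 11 that were higher (17.5%). IFIT1 was therefore 1 of 15 members that fell, and nearly as many members rose.

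**Figure D1:**
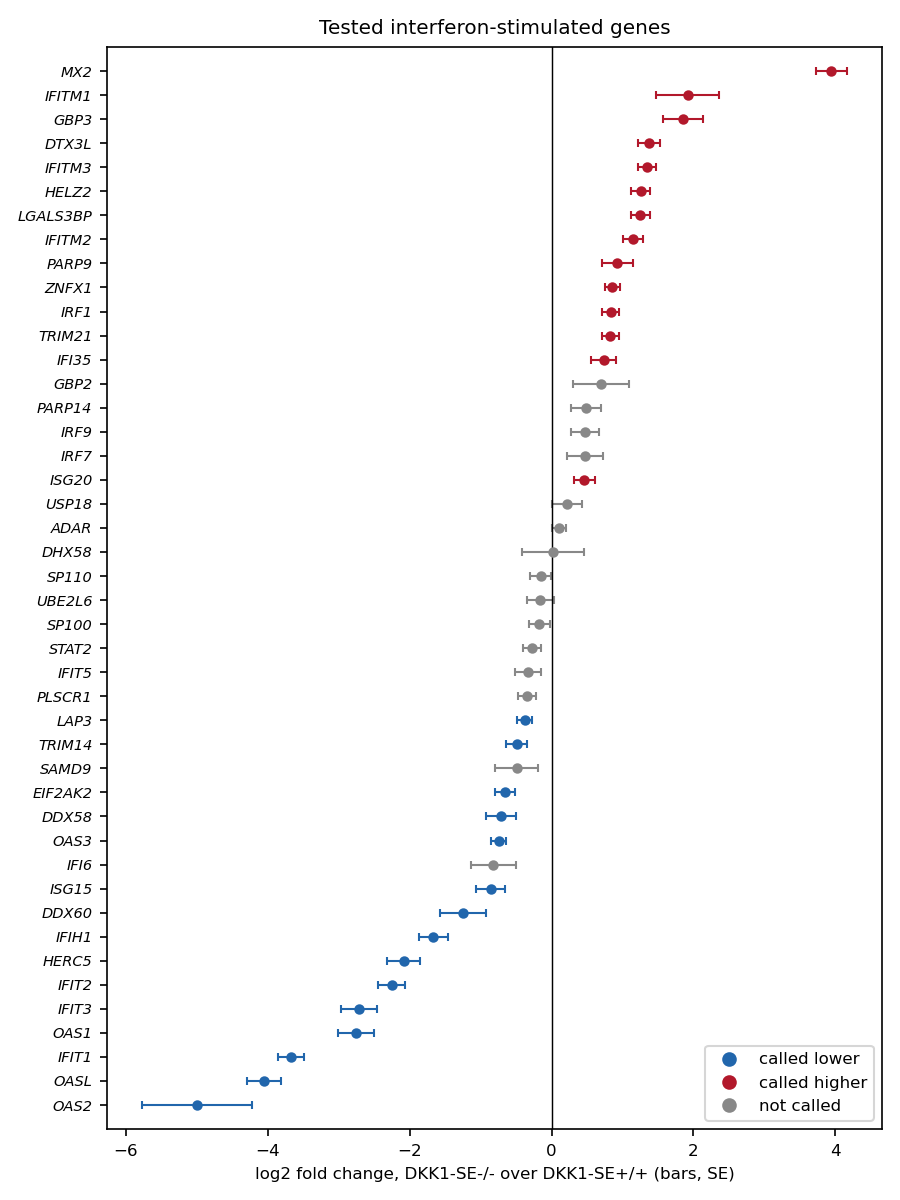
Log2 fold change of each of the 44 tested interferon-stimulated genes, DKK1-SE-/- over DKK1-SE+/+, from the edgeR fit of 3 libraries per genotype; bars show the SE, and colour shows the call at an adjusted p under 0.05. OAS2, OASL and IFIT1 lie at the low end with log2 fold changes of -4.99, -4.05 and -3.68, and MX2 lies at the high end at 3.94.

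The IFIT genes encode tetratricopeptide-repeat proteins that bind viral RNA and hold it back from the ribosome, and 4 of them sit within 138 kb on chromosome 10. IFIT1, which binds RNA whose cap lacks 2'-O-methylation, is at chr10:89392546-89406487 (hg38) and stood at 15.0, 15.0 and 15.3 TPM in the WT libraries and at 0.70, 1.3 and 1.18 TPM in the DKK1-SE-/- libraries. The highest DKK1-SE-/- library was far below the lowest WT library, and the WT libraries were nearly equal. The mean was 15.1 ± 0.142 TPM in WT and 1.06 ± 0.318 TPM in DKK1-SE-/- cells (SD, n = 3 each). The log2 fold change of IFIT1 was -3.68 (SE 0.186, edgeR adjusted p = 3.16e-07), and the exact permutation test of its TPM gave a two-sided p of 0.1, the smallest that 3 against 3 samples allow.

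IFIT2, which binds AU-rich RNA, had 17.3, 18.8 and 16.5 TPM in WT and 2.15, 3.36 and 4.48 TPM in DKK1-SE-/- cells. IFIT3, which stabilises IFIT1 in a shared complex, had 15.9, 11.4 and 10.7 TPM in WT and 0.76, 1.35 and 2.60 TPM in DKK1-SE-/- cells. Both genes were lower in every DKK1-SE-/- library than in any WT library. Their log2 fold changes were -2.25 for IFIT2 (SE 0.189, edgeR adjusted p = 1.03e-05) and -2.71 for IFIT3 (SE 0.254, edgeR adjusted p = 2.33e-05). IFIT5, which binds RNA with a 5'-triphosphate and begins 8.08 kb from the end of IFIT1, had 4.58, 4.25 and 5.65 TPM in WT and 2.39, 4.39 and 4.70 TPM in DKK1-SE-/- cells. The genotypes overlapped for IFIT5, with 1 DKK1-SE-/- library below the others. Its log2 fold change was -0.33 (SE 0.177, edgeR adjusted p = 0.161), and with an offset for GC content it was 0.12, so no change of IFIT5 was shown in either direction.

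**Figure D2:**
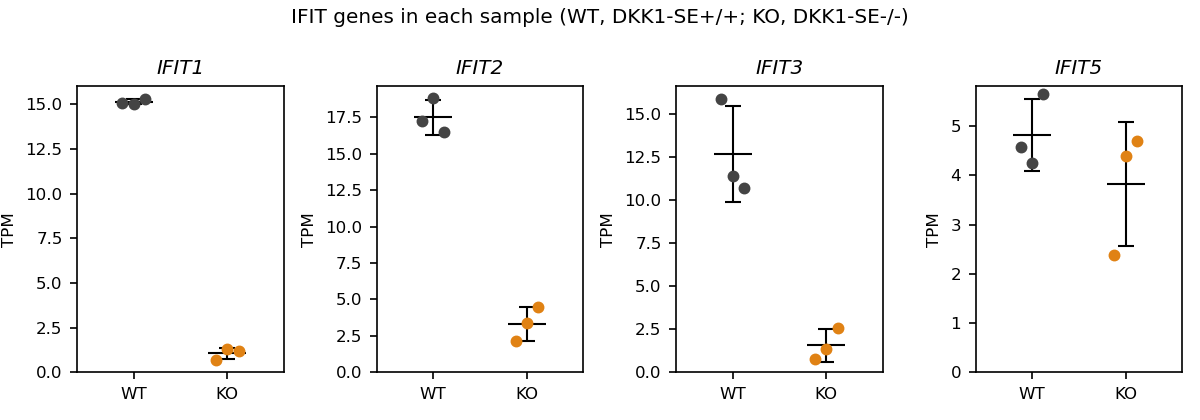
TPM of IFIT1, IFIT2, IFIT3 and IFIT5 in each of the 3 WT (DKK1-SE+/+) and 3 DKK1-SE-/- libraries (KO); points are libraries, and lines and bars are the mean and SD. IFIT1, IFIT2 and IFIT3 do not overlap between genotypes, and IFIT5 does.

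The distance between IFIT1 and the other members was taken in each library as the log2(TPM + 1) of IFIT1 minus the mean over the 43 other tested members. This difference was 0.86, 0.89 and 0.86 in the WT libraries and -2.16, -1.75 and -1.96 in the DKK1-SE-/- libraries. IFIT1 thus stood above the average member in every WT library and below it in every DKK1-SE-/- library, a shift of -2.83. Against IFIT5 alone, the log2(TPM + 1) difference of IFIT1 was 1.52, 1.61 and 1.29 in WT and -0.996, -1.23 and -1.39 in DKK1-SE-/- cells. Against IFIT2 the difference was -0.19, -0.30 and -0.10 in WT and -0.89, -0.92 and -1.33 in DKK1-SE-/- cells, with no overlap. Against IFIT3 the mean difference was 0.26 in WT and -0.27 in DKK1-SE-/- cells, and the genotypes overlapped.

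Annotated exons of IFIT2 and IFIT3 overlap exons of LIPA, a lysosomal lipase gene on the opposite strand, and IFIT1 lies inside the span of LIPA without exon overlap. Whether strand was used in counting is not given in the sources used here, so reads of IFIT2 and IFIT3 in the shared stretches may be divided with LIPA. LIPA itself had a log2 fold change of -0.18 (SE 0.113, edgeR adjusted p = 0.219). Exons of IFIT2 also overlap those of a long noncoding RNA gene on the same strand, which strand could not separate. That gene has 354 counts over the libraries, against 2929 for IFIT2, and moved the other way (log2 fold change 3.26, SE 0.33, edgeR adjusted p = 4.05e-05).

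Promoters were searched for the element named above. The motif was GAAANNGAAA, 2 half-sites separated by any 2 bases, on either strand in the 250 bases before the RefSeq start (GRCh38.p14), where copies may overlap. RefSeq promoters were matched for 47 members, of which 24 held the motif (51.1%), against 1061 of all 35116 promoters (3.02%). The motif was in 9 of 12 matched members that fell, 4 of 11 that rose, 5 of 11 that were tested and not called and 6 of 13 that were not tested. No RefSeq promoter was found for IFIT2, OAS2 and OASL, which fell, or for MX2, IFITM2 and ZNFX1, which rose. These counts therefore leave out OAS2, OASL and MX2, which lie at the ends of the range of log2 fold changes. A match is a run of letters and not a measured binding site. The 4 stretches below show 2 promoters of the chromosome 10 cluster, that of ISG15, which fell, and that of IFITM3, which rose, each written 5' to 3' on the strand of its gene with the motif copies in capitals and annotated exons left out. They are chr10:89392373-89392545 (plus strand, IFIT1, inside an intron of LIPA on the other strand), chr10:89327747-89327940 (plus strand, IFIT3, also within LIPA), chr1:1013247-1013496 (plus strand, ISG15) and chr11:320861-321110 (minus strand, IFITM3).
IFIT1: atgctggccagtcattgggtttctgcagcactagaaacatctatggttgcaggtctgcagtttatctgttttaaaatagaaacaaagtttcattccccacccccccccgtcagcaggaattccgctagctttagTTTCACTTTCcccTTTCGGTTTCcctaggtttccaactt
IFIT3: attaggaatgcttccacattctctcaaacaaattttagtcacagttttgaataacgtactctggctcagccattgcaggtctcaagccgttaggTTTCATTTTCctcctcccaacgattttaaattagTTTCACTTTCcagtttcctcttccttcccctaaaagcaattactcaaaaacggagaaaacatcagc
ISG15: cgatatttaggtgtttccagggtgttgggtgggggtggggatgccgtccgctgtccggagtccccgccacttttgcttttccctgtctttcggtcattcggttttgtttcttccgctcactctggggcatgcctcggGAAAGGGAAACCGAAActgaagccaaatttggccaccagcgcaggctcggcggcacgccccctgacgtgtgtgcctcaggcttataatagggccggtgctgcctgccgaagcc
IFITM3: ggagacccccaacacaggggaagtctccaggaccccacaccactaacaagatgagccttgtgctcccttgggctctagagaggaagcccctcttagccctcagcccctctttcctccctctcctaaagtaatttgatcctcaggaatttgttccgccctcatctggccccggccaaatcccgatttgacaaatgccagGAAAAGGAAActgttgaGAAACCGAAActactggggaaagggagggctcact
Each of the 4 promoters held 2 copies, and the 2 copies of ISG15 overlap. IFIT5, whose change was not called, also held 2 copies, the nearer one 10 to 19 bases before its start.

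Sensors of viral nucleic acid moved in both directions. IFIH1 (MDA5), the helicase that senses long double-stranded RNA, had 8.17, 8.14 and 7.42 TPM in WT and 1.99, 1.6 and 3.57 TPM in DKK1-SE-/- cells. All DKK1-SE-/- libraries lay below all WT libraries, with a log2 fold change of -1.67 (SE 0.207, edgeR adjusted p = 0.000155). DDX58 (RIG-I), which senses RNA with a 5'-triphosphate, was called lower with a log2 fold change of -0.71 (SE 0.216, edgeR adjusted p = 0.0226), but the call was lost in 4 of 16 alternative settings (adjusted p = 0.0664 without WT replicate 2, the highest of a range that began at 7.37e-06). Its exons overlap those of a gene on the same strand. DDX60, a helicase that assists these sensors, had 0.94, 0.98 and 0.86 TPM in WT and 0.80, 0.25 and 0.87 TPM in DKK1-SE-/- cells. Its TPM values overlapped while its counts, 95, 70 and 64 in WT and 15, 28 and 46 in DKK1-SE-/- cells, did not. The DDX60 count fit gave a log2 fold change of -1.25 (SE 0.329, edgeR adjusted p = 0.0119), and limma ended the call on both log2(TPM + 1) and log2(TPM + 0.1) (adjusted p = 0.306 on the latter, the highest of a range that began at 0.00012).

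ZNFX1, a helicase of the outer mitochondrial membrane that senses double-stranded RNA, was the most abundant sensor by mean TPM. It had 18.6, 20.4 and 21.4 TPM in WT and 32.7, 29.0 and 37.4 TPM in DKK1-SE-/- cells. All DKK1-SE-/- libraries were above all WT libraries, with a log2 fold change of 0.86 (SE 0.104, edgeR adjusted p = 0.000134). Exons of ZNFX1 overlap those of DDX27 and ZFAS1 on the other strand, so its reads may be divided with them if strand was not used in counting. DHX58 (LGP2), a regulator of both RNA helicases, was not called, and the DNA sensor IFI16 did not pass the filter.

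The oligoadenylate synthetase (OAS) family makes 2'-5'-linked oligoadenylate, which switches on RNase L to degrade RNA. OAS1 had 4.49, 4.37 and 4.15 TPM in WT and 0.52, 0.31 and 0.33 TPM in DKK1-SE-/- cells. OASL, an OAS-like protein without synthetase activity that enhances RIG-I signalling, had 7.66, 7.90 and 6.62 TPM in WT and 0.47, 0.66 and 0.33 TPM in DKK1-SE-/- cells. Both were low in every DKK1-SE-/- library, and the log2 fold changes were -2.76 for OAS1 (SE 0.258, edgeR adjusted p = 2.32e-05) and -4.05 for OASL (SE 0.243, edgeR adjusted p = 1.03e-06). OASL, which lies on chromosome 12, thus fell as IFIT1 did.

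OAS2 was scarce, with 21, 13 and 13 counts in the WT libraries and 0, 0 and 1 in the DKK1-SE-/- libraries. The WT level was 43.3-fold the DKK1-SE-/- level in summed counts scaled by library size (exact 95% interval 7.39 to 1744, which covers counting error only). Its fitted log2 fold change of -4.99 (SE 0.776, edgeR adjusted p = 0.000634) depends on the prior count added to the single read. OAS3, the large synthetase that activates RNase L, fell by 0.74 on the log2 scale (SE 0.105, edgeR adjusted p = 0.00036), a smaller change than those of OAS1 and OAS2, which lie 4.83 and 1.94 kb from it. EIF2AK2 (PKR), the kinase that stops translation when it binds double-stranded RNA, fell by 0.65 (SE 0.143, edgeR adjusted p = 0.00439), and its exons overlap those of GPATCH11 on the other strand.

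ADAR, which edits adenosine to inosine in double-stranded RNA, was the most abundant gene of this group. It had 67.8, 74.5 and 73.4 TPM in WT and 69.4, 62.1 and 81.3 TPM in DKK1-SE-/- cells. The genotypes overlapped, and the log2 fold change was 0.11 (SE 0.101, edgeR adjusted p = 0.414). ISG20, an exonuclease, was called higher at a log2 fold change of 0.46 (SE 0.150, edgeR adjusted p = 0.0308), a call that was lost in 12 of 16 alternative settings, where its adjusted p ranged from 0.0134 to 0.904.

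MX2, a dynamin-like GTPase known for blocking nuclear entry of HIV, moved against IFIT1. It had 1.36, 1.02 and 0.89 TPM in WT and 10.2, 6.61 and 9.46 TPM in DKK1-SE-/- cells. Every DKK1-SE-/- library was far above every WT library, and the log2 fold change was 3.94 (SE 0.219, edgeR adjusted p = 6.04e-07). MX1, the neighbouring GTPase that restricts influenza virus, lies 10.6 kb from MX2 and did not pass the filter, with 0.22, 0.14 and 0.39 TPM in WT and 0.17, 0.10 and 0.18 TPM in DKK1-SE-/- cells. The 2 MX genes therefore had different levels in DKK1-SE-/- cells. RSAD2 (viperin), an enzyme that makes a chain-terminating nucleotide, had 6, 4 and 4 counts in WT and 0 in each DKK1-SE-/- library, at least 4.29-fold lower against a floor of 3 counts over the group, and was called lower with no low-count filter. CMPK2, a mitochondrial nucleotide kinase, and SAMD9L did not pass the filter, and SAMD9, a paralogue of SAMD9L and a restriction factor of poxviruses, was not called.

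The IFITM proteins sit in membranes and hinder the fusion of virus with the cell. By mean TPM, IFITM3 was the most abundant member in both genotypes, with 195, 205 and 212 TPM in WT and 507, 483 and 429 TPM in DKK1-SE-/- cells. In WT replicate 1 ISG15 was higher, at 214 TPM. IFITM2 had 27.6, 40.8 and 28.8 TPM in WT and 53.8, 56.0 and 52.3 TPM in DKK1-SE-/- cells. IFITM1 had 0.78, 0.75 and 1.79 TPM in WT and 3.24, 2.99 and 3.38 TPM in DKK1-SE-/- cells. None of the 3 overlapped between genotypes, and all rose. The log2 fold changes were 1.35 for IFITM3 (SE 0.124, edgeR adjusted p = 2.11e-05), 1.15 for IFITM2 (SE 0.141, edgeR adjusted p = 0.000146) and 1.92 for IFITM1 (SE 0.443, edgeR adjusted p = 0.00594). These genes are close paralogues on chromosome 11, so reads may be divided among them, and the IFITM1 value rests on 4 to 19.3 counts a library. BST2 (tetherin), which holds budding virus at the cell surface, did not pass the filter.

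The direction of the summed level depended on IFITM3. The summed TPM of all 58 members was 896, 896 and 893 in WT and 1108, 1103 and 1015 in DKK1-SE-/- cells. Without IFITM3 it was 701, 691 and 680 in WT and 602, 621 and 586 in DKK1-SE-/- cells. The sum was higher in DKK1-SE-/- cells with IFITM3 and lower without it. Without ISG15, which was nearly as abundant in WT, the sum was 682, 702 and 710 in WT and 1019, 978 and 946 in DKK1-SE-/- cells.

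The ISG15 system conjugates the ubiquitin-like protein ISG15 to target proteins. ISG15 had 214, 195 and 183 TPM in WT and 89.4, 125 and 69.4 TPM in DKK1-SE-/- cells. Each DKK1-SE-/- library was below each WT library, and the log2 fold change was -0.86 (SE 0.204, edgeR adjusted p = 0.00705). HERC5, the main ligase for ISG15, had 2.8, 3.81 and 3.21 TPM in WT and 0.76, 0.43 and 0.85 TPM in DKK1-SE-/- cells. It too was lower in every DKK1-SE-/- library, with a log2 fold change of -2.09 (SE 0.232, edgeR adjusted p = 7.49e-05). UBE2L6, the conjugating enzyme, and USP18, the protease that removes ISG15 and also dampens receptor signalling, were not called, at -0.16 (SE 0.185) and 0.22 (SE 0.215). HERC6 did not pass the filter.

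The guanylate-binding proteins are GTPases that attack the vacuoles of intracellular pathogens. GBP3 had 1.28, 0.69 and 0.93 TPM in WT and 1.55, 1.89 and 4.99 TPM in DKK1-SE-/- cells. The genotypes did not overlap, and 1 DKK1-SE-/- library was well above the others in TPM. The GBP3 log2 fold change was 1.86 (SE 0.285, edgeR adjusted p = 0.0006), and limma ended the call on both log2(TPM + 1) and log2(TPM + 0.1) (adjusted p = 0.0659 on the former, the highest of a range that began at 3.29e-07). GBP2 was not called, and GBP1 did not pass the filter.

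DTX3L, a ubiquitin ligase that works in a complex with the ADP-ribosyltransferase PARP9, had 2.35, 3.01 and 2.61 TPM in WT and 5.33, 5.37 and 8.01 TPM in DKK1-SE-/- cells. It was higher in every DKK1-SE-/- library, with a log2 fold change of 1.37 (SE 0.156, edgeR adjusted p = 8.76e-05). PARP9 was called higher at 0.93 (SE 0.218, edgeR adjusted p = 0.00653), but limma on log2(TPM + 1) or log2(TPM + 0.1) did not call it, and its adjusted p ranged from 0.00144 to 0.288 over the alternatives. PARP9 and DTX3L overlap head to head in their exons. TRIM21, an antibody receptor in the cytosol and a ubiquitin ligase, was the most abundant of its group with 15.4, 14.4 and 15.3 TPM in WT and 22.5, 24.9 and 24.7 TPM in DKK1-SE-/- cells. It rose in every DKK1-SE-/- library (log2 fold change 0.83, SE 0.118, edgeR adjusted p = 0.000357). TRIM14, an adaptor of mitochondrial antiviral signalling, fell by 0.49 on the log2 scale (SE 0.147, edgeR adjusted p = 0.0208), a call lost without WT replicate 3 or DKK1-SE-KO replicate 2 (range of adjusted p 0.00123 to 0.0861). PARP14 was not called in the main fit, though it was called higher in 4 of 16 alternative settings, and TRIM22 did not pass the filter.

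Of the 4 transcription factors on the list, 1 was called, in the higher direction (25%, against 19.8% of all tested genes). IRF1, an activator of interferon and antigen-presentation genes, had 47.2, 38.1 and 50 TPM in WT and 96.7, 81.0 and 49.3 TPM in DKK1-SE-/- cells. In TPM, 1 DKK1-SE-/- library lay among the WT libraries and 2 lay above them. The IRF1 count fit gave a log2 fold change of 0.83 (SE 0.122, edgeR adjusted p = 0.000441), and limma ended the call on both log2(TPM + 1) and log2(TPM + 0.1) (adjusted p = 0.0523 on the latter, the highest of a range that began at 2.69e-08). STAT2 and IRF9, the parts of the complex named above, had log2 fold changes of -0.27 (SE 0.124) and 0.47 (SE 0.198) and were not called. STAT2 was called lower with the GC-content offset (log2 fold change -0.38, adjusted p = 0.015), with or without the replicate block, and without DKK1-SE-KO replicate 3, while IRF9 was called higher without WT replicate 1 (adjusted p = 0.0195). IRF7, which drives interferon genes, was not called, except higher without DKK1-SE-KO replicate 3 (adjusted p = 0.00998). Exons of IRF1 and TRIM14 overlap genes on the other strand, so their counts are uncertain in those stretches. Exons of IRF9 overlap those of a gene on the same strand that has 511 counts over the libraries, against 814 for IRF9, so the IRF9 value is uncertain for that reason too.

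SP100 and SP110 belong to nuclear bodies that restrain viral DNA, and neither was called. SP100 had 12.1, 10.8 and 14.7 TPM in WT and 9.81, 11.1 and 14.9 TPM in DKK1-SE-/- cells. The genotypes overlapped, with a log2 fold change of -0.17 (SE 0.143, edgeR adjusted p = 0.372).

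Among the remaining interferon-inducible genes, LGALS3BP, a secreted glycoprotein that binds galectin-3, had 10.1, 12.1 and 12.6 TPM in WT and 28.7, 26.7 and 23.9 TPM in DKK1-SE-/- cells. HELZ2, a helicase and nuclear receptor coactivator, had 8.69, 8.55 and 7.63 TPM in WT and 20.1, 17.7 and 17.9 TPM in DKK1-SE-/- cells. Both were higher in all DKK1-SE-/- libraries, with log2 fold changes of 1.25 (SE 0.133, edgeR adjusted p = 5.59e-05) and 1.26 (SE 0.138, edgeR adjusted p = 6.83e-05). LAP3, a leucine aminopeptidase, was the most abundant of this group with 53.7, 50.1 and 48.8 TPM in WT and 30.9, 33.6 and 40.8 TPM in DKK1-SE-/- cells. It was lower in every DKK1-SE-/- library, with a log2 fold change of -0.38 (SE 0.108, edgeR adjusted p = 0.017). That call was lost without WT replicate 1, WT replicate 2 or DKK1-SE-KO replicate 2 and with the replicate block (adjusted p = 0.0769 without WT replicate 2, the highest of a range that began at 0.00104). IFI35 was called higher, and IFI6 and PLSCR1 were not called in the main fit, though each was called lower in some alternatives (lowest adjusted p 0.0239 and 0.0291). IFI27, IFI44, IFI44L, XAF1 and EPSTI1 did not pass the filter, and IFI44L had no count in any library. IFI44, given here after its values were seen, had 25, 9 and 17 counts in WT and 1, 3 and 6 in DKK1-SE-/- cells, with no overlap. It was called lower with no low-count filter and in the fits without WT replicate 2, DKK1-SE-KO replicate 1 or DKK1-SE-KO replicate 3.

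The pathway upstream of these genes was described with 31 listed genes that are not members, of which 24 were tested. Of these, 9 were called lower (37.5%, against 19.5% of all tested genes) and 4 higher (16.7%, against 19.8%). The interferon lambda genes carried the largest differences among the pathway genes. IFNL1, which encodes a type III interferon, had 131, 104 and 111 counts in WT and 2, 1 and 4 in DKK1-SE-/- cells, or 14.1, 15.4 and 14.3 TPM against 0.25, 0.11 and 0.53 TPM. Each DKK1-SE-/- library had nearly lost the transcript (log2 fold change -5.44, SE 0.365, edgeR adjusted p = 2.24e-06). IFNL3 had 49, 25.3 and 44.3 counts in WT and 0 in each DKK1-SE-/- library, at least 36.2-fold lower against a floor of 3 counts over the group. IFNL2 had 32, 14.7 and 27.7 counts in WT and 1, 0 and 0 in DKK1-SE-/- cells, a 69.0-fold ratio of summed counts (exact 95% interval 12.0 to 2762). IFNL2 and IFNL3 are nearly identical in sequence, so the split of reads between them is uncertain, but both fell. IFNE, an epithelial type I interferon, was not called, and IFNB1, IFNA1, IFNA2, IFNK and IFNG had at most 4 counts in any library and were not tested.

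Of 8 tested receptor and kinase genes, 6 were called lower (75%, against 19.5% of all tested genes) and 0 higher (against 19.8%) by edgeR, with 0 higher also at an unadjusted p under 0.05 and by DESeq2 or limma. All 8 had a log2 fold change below 0 in the main fit. Of those called, IFNAR1, IFNAR2, IL10RB and IFNGR2 lie within 274 kb on chromosome 21 and are not separate cases. Other tested genes within 5 Mb of them had a median log2 fold change of -0.47. IFNAR1 and IFNAR2, the type I receptor chains, fell by 0.70 (SE 0.145, edgeR adjusted p = 0.0032) and 0.74 (SE 0.123, edgeR adjusted p = 0.000957) on the log2 scale; limma ended the IFNAR1 call on both TPM scales (adjusted p = 0.0528 on log2(TPM + 0.1), range from 2.03e-06). Exons of IFNAR2 and IL10RB both overlap those of a read-through gene on the same strand with 523 counts over the libraries. IL10RB, the shared chain of the interferon lambda receptor, had 22.4, 19.9 and 21.5 TPM in WT and 10.2, 10.7 and 10.3 TPM in DKK1-SE-/- cells, and fell by 0.79 (SE 0.128, edgeR adjusted p = 0.000791). IFNGR1 and IFNGR2, the interferon gamma receptor chains, fell by 0.77 and 0.40, the latter call lost without WT replicate 2 (adjusted p = 0.055, range from 0.000431). JAK1 fell by 0.31 (SE 0.105, edgeR adjusted p = 0.0371), a call lost in 6 of 16 alternative settings (range of adjusted p 0.0036 to 0.151). TYK2 and JAK2 were not called in the main fit. TYK2, at -0.01 there, was called lower with the GC-content offset (log2 fold change -0.31, adjusted p = 0.00823), and JAK2 was called lower with no low-count filter or without DKK1-SE-KO replicate 3 (adjusted p = 0.0106 for the latter). IFNLR1, the chain specific to interferon lambda, had 3 counts over the WT libraries and 29 over the DKK1-SE-/- libraries and was not tested. This receptor gene went the other way, with a DKK1-SE-/- level 10.5-fold the WT level in summed counts scaled by library size (exact 95% interval 3.26 to 53.9). All of its WT counts came from WT replicate 3, and its TPM values overlapped between genotypes.

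**Figure D3:**
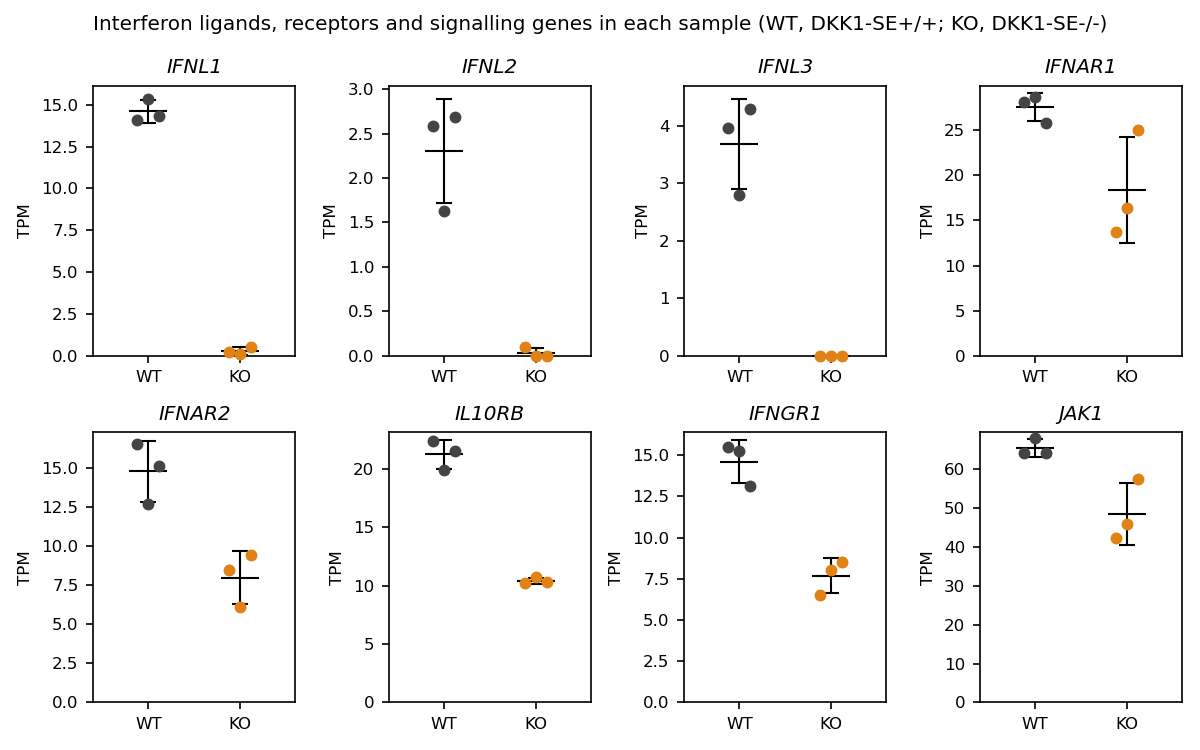
TPM of 3 interferon lambda genes, 4 receptor genes and JAK1 in each of the 3 WT (DKK1-SE+/+) and 3 DKK1-SE-/- libraries (KO); points are libraries, and lines and bars are the mean and SD. IFNL1 lies between 14.1 and 15.4 TPM in WT and at most 0.53 TPM in DKK1-SE-/- cells, while the receptors and JAK1 differ less.

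In the induction pathway that leads from sensors to interferon genes, 3 of 8 tested genes were called higher (37.5%, against 19.8% of all tested genes) and 0 lower (against 19.5%) by edgeR. The same 0 lower came from DESeq2 and limma, and at an unadjusted p under 0.05 edgeR and DESeq2 each had 1 lower and limma 3. TRAF3 was called lower with the GC-content offset (log2 fold change -0.28, adjusted p = 0.0135) and TBK1 without DKK1-SE-KO replicate 3 (adjusted p = 0.00371). MAVS, the mitochondrial adaptor of the RNA helicases, rose by 0.64 (SE 0.117, edgeR adjusted p = 0.00173), STING1, the adaptor of DNA sensing, by 0.98 (SE 0.254, edgeR adjusted p = 0.0109) and IKBKE, a kinase that activates IRF3, by 1.3 (SE 0.248, edgeR adjusted p = 0.00209). Of 4 negative regulators, 1 was called higher (25%, against 19.8% of all tested genes), SOCS1, which inhibits the JAK kinases (log2 fold change 1.57, SE 0.435, edgeR adjusted p = 0.0152). The SOCS1 call was lost in 4 of 16 alternative settings, each leaving out 1 library (range of adjusted p 0.00248 to 0.0702), and the MAVS call with limma on log2(TPM + 1) (adjusted p = 0.0504, range from 1.62e-05).

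Members were also set beside their chromosomal neighbours. The window around the IFIT genes was planned, and the blocks along chromosome 10, KIF20B and the windows around other members were chosen after the data were seen. The start of IFIT1 lies 37.1 Mb from that of DKK1 on chromosome 10. Within 5 Mb on either side of the IFIT genes, 52 other genes were tested, with a median log2 fold change of -0.86. Of these, 33 were called lower and 3 higher, where 19.5% of all tested genes were called lower and 19.8% higher. The shift was not particular to this stretch. In blocks of 10 Mb along the chromosome, counted from the start of IFIT1, the median was -0.71 from 0 to 10 Mb and -0.71 from 20 to 30 Mb. It was -0.47 and -0.54 in the blocks from 10 and 30 Mb, and -0.47 in that from -80 Mb (-0.19 with the GC-content offset). The blocks from -40 and -20 Mb went the other way, at 0.22 and 0.27. Over all 584 tested chromosome 10 genes that are not members the median was -0.32, the second lowest of 22 autosomes, and in the 10 Mb block that begins 50 Mb before IFIT1 it was 0.63. With the GC-content offset the chromosome 10 median was -0.32, the lowest of the 22, with chromosome 2 at -0.30. With the GC-content offset the median around the IFIT genes was -0.52. IFIT1, IFIT2 and IFIT3 lay below the median of this neighbourhood, whose single genes ranged from -2.11 to 3.26, and IFIT5 at -0.33 lay above it. KIF20B, a kinesin gene in the same neighbourhood that is not an interferon-stimulated gene, had a log2 fold change of -2.11 (SE 0.236, edgeR adjusted p = 7.6e-05). Gene copy number was not measured here, and its part in these values was not tested.

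**Figure D4:**
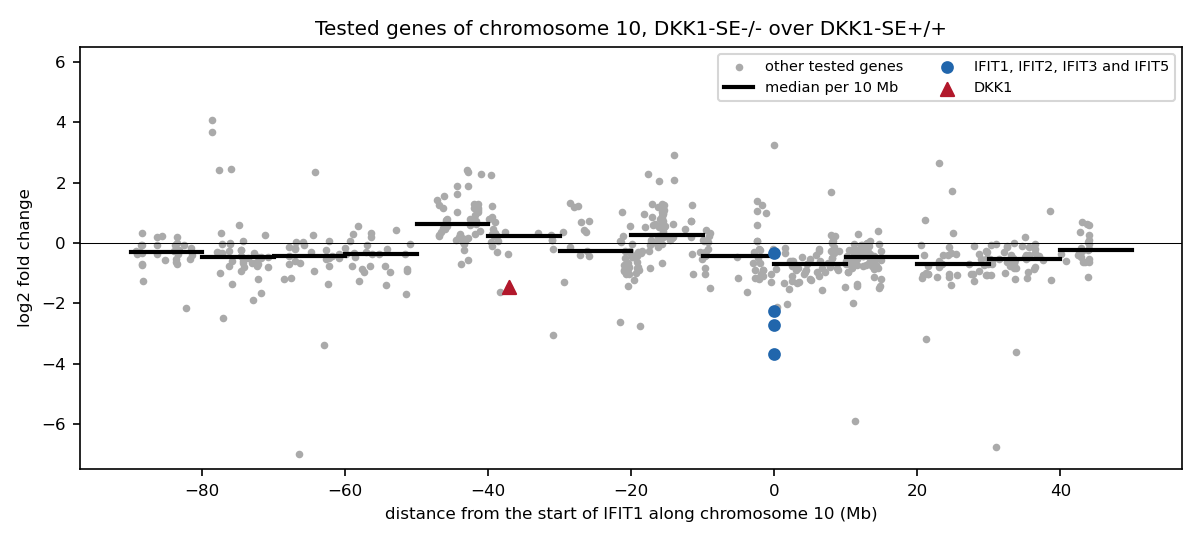
Log2 fold change, DKK1-SE-/- over DKK1-SE+/+, of tested chromosome 10 genes against the distance of their start from the start of IFIT1 in Mb; black lines are medians of other genes in 10 Mb blocks. The medians are -0.71 in the block that begins at IFIT1 and 0.63 in the block from -50 to -40 Mb.

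Each other member was compared in the same way with the tested genes within 5 Mb of it that are not members. Of the 15 members called lower, 8 had a local median below 0 (53.3%, against 75.5% of all genes called lower), and of the 14 called higher, 12 had a local median above 0 (85.7%, against 81.8% of all genes called higher). With the GC-content offset the local medians had these signs for 5 and 11 of them. These were 33.3% and 78.6%, against 65.7% of all genes called lower and 76.7% of all genes called higher. Members that lie together, such as the IFIT genes, share nearly the same window and are not separate cases. Of the 15 not called, 11 had a local median of the same sign as their own change. The matching share over all genes not called is not given here, so this count has no background. EIF2AK2 stood at -0.65 beside a local median of -0.72, and with the GC-content offset at -0.30 beside -0.35. OAS1, OASL and HERC5 fell among neighbours with medians of 0.10, 0.12 and 0.02. DTX3L and PARP9 lay among genes with medians of 0.70, HELZ2 among genes with a median of 0.61 and ZNFX1 among genes with a median of 0.50. MX2 rose among neighbours with a median of 0.08. GBP3 and IRF1 rose among neighbours whose medians were below 0, at -0.44 and -0.28.

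**Figure D5:**
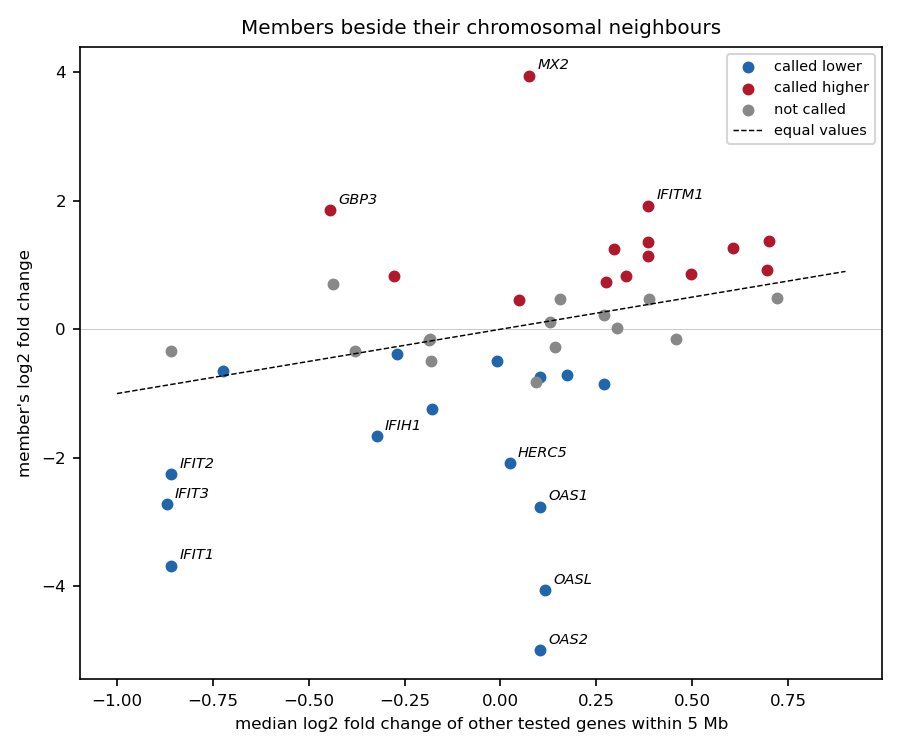
Log2 fold change of each of the 44 tested members against the median log2 fold change of other tested genes within 5 Mb, DKK1-SE-/- over DKK1-SE+/+; colour shows the call, and the dashed line marks equal values. IFIT1, IFIT2 and IFIT3 lie below neighbours whose medians are near -0.86, OAS1, OAS2, OASL and HERC5 lie below neighbours near 0, and MX2 lies above neighbours near 0.

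The GC content of transcripts also moved with the comparison. Across all tested genes the Spearman correlation of log2 fold change with GC content was 0.404, a description over genes that are not independent. The median GC content was 43.2% for members called lower, 43.1% for members tested and not called and 52.8% for members called higher. With an offset fitted to GC content the correlation was -0.0109, and 17 members were called lower and 14 higher, including all 15 that fell without it and 13 of the 14 that rose. The share of all tested genes called with this offset is not given here, so these counts have no background. IFIT1 stood at -3.49 with this offset. The members it added were STAT2 and IFI6, lower, and PARP14, higher. The changes of DDX58, EIF2AK2, ISG20, IFNGR1 and KRT18 shrank by over 1.5-fold, to -0.42, -0.30, 0.30, -0.47 and 0.42.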

How the data were processed

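RNA-seq of 6 PANC-1 libraries was analysed, 3 WT and 3 DKK1-SE-KO, grouped by their labels. Libraries were prepared with a stranded Illumina mRNA kit and sequenced by Majorbio; the processing notes of the submitters name the hg38 build, and the aligner, the counting program and the annotation are not given in the sources used here. The deposited table lists an expected count and a TPM value per gene and library, made by the authors. Of the nonzero expected counts, 32.3% are not whole at a tolerance of 1e-06. The authors also deposited group mean TPM, gene length, a fold ratio, a log2 fold change and p-values of their own comparison, none of which was used.

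Expected counts were rounded and fitted with edgeR 4.0.16 (quasi-likelihood F test, filterByExpr with a minimum count of 10, TMM factors) in R 4.3.3, and p-values were adjusted over all 15179 tested genes by Benjamini-Hochberg; the code was tested on simulated data. The study states its limit of 1.2 for the absolute fold change and names no log scale. The stricter rule reads it as a log2 value, and the reading as a ratio is given as an alternative. TPM was used for levels. Genes were placed with GENCODE 44. The SE is the log2 fold change divided by the square root of F. Floors use 3 counts over a group, and intervals cover counting error only. The libraries are labelled biological replicates, and the study states at least 3 independent replicates for its experiments. Nothing says how the cultures of these libraries were separated, so p-values measure the spread between these libraries, which may be technical.

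Members with a call and a log2 fold change of at least 1 in size, the 4 IFIT genes and the most abundant member of each role are given with every library; other members named were chosen to account for the list. The members and lists were chosen with earlier results of these data known. A few genes planned for the pathway, marker and added lists are not reported here, and the counts of those lists leave them out. Alternatives were DESeq2 1.42.0, RLE and library-size scaling, no low-count filter, a replicate block, leaving out each library, limma 3.58.1 on log2(TPM + 1) and log2(TPM + 0.1), a mean TPM of at least 1, a GC-content offset with and without the block, and windows of 2 and 10 Mb.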

Additional observations from a re-analysis of the deposited data

How the results depend on the processing

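IFIT1 was called lower in all 16 alternative fits, with log2 fold changes of -3.90 to -2.98. Between 13 and 18 members were called lower and between 10 and 15 higher, with 39 to 57 members tested. Shares of all tested genes called are not given for the alternatives, the replicate block among them, so these counts have no background. Of the members called in the main fit, 11 of the 15 lower and 10 of the 14 higher kept their call in every setting that tested them. No called member changed sign. Members past the stricter limits on the higher side numbered 7 in the main fit, 5 to 8 without single libraries (5 without WT replicate 1 or DKK1-SE-KO replicate 1, 8 without WT replicate 3), 5 with library size alone, 2 with limma on log2(TPM + 1), 4 with limma on log2(TPM + 0.1), 4 with the GC-content offset and 4 with that offset and the replicate block. With the limit of 1.2 read as a ratio, a setting chosen after seeing the data, 17 members were lower (23.3% of all tested genes were) and 16 higher (24.3%). The median around the IFIT genes was -0.60 without the low-count filter, -0.69 with limma on log2(TPM + 1), -0.52 with the GC-content offset, -0.53 with that offset and the replicate block, and -0.59 in the 10 Mb window; the cause was not tested. The shift of IFIT1 against the other members was -3.49 on log2(TPM + 0.1). The median of all genes, 0.03 in the main fit, was -0.08 and -0.11 in the limma fits of log2(TPM + 1) and log2(TPM + 0.1), which change tool, measure and pseudocount at once. The median of the members ranged from -0.23 without WT replicate 2 to 0.03 with the GC-content offset, and was -0.23 with library size alone. With the replicate block, 14 members were called lower and 13 higher, and the log2 fold change of IFIT1 was -3.70. Deviations of libraries with the same number from their group means correlated at -0.123, -0.0738 and -0.109, with no sign of pairing by number. With 3 libraries per group, these correlations cannot exclude that the libraries were paired. Without single libraries, pathway calls numbered 11 to 19. The log2 fold changes of 7 members called lower and 6 called higher moved by over 1.5 times in some setting, none of them by leaving out a library. With limma on log2(TPM + 1), MX2 was 2.21, IFITM1 1.03, IFITM2 0.74, GBP3 0.86, PARP9 0.27, ISG20 0.03, OASL -2.50, HERC5 -1.35, OAS3 -0.44, OAS2 -0.35 and DDX60 -0.25, and with the GC-content offset EIF2AK2 was -0.30 and DDX58 -0.42. Among genes that are not members, limma on log2(TPM + 1) gave -3.60 for IFNL1, 0.72 for SOCS1 and 0.68 for CD14. With no low-count filter, IFI44 and RSAD2 were called lower as well.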

Other observations

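Genes outside the list, chosen after the member values were seen, also moved in both directions. CCL5, a chemokine that draws T cells and is induced by interferon and by IRF3, had 15.0, 11.9 and 12.5 TPM in WT and 1.39, 1.74 and 1.95 TPM in DKK1-SE-/- cells. It was lower in every DKK1-SE-/- library (log2 fold change -2.82, SE 0.204, edgeR adjusted p = 4.05e-06). The interferon-inducible chemokines CXCL9 and CXCL10 had no count in any library, and CXCL11 had 1 count in each of 2 WT libraries.

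Of 9 tested genes of MHC class I antigen presentation, 6 were called higher (66.7%, against 19.8% of all tested genes) and 0 lower (against 19.5%) by edgeR, with 0 lower also at an unadjusted p under 0.05 and by DESeq2 or limma. All 6 lie within 2.37 Mb on chromosome 6, where 245 other tested genes within 5 Mb had a median log2 fold change of 0.16. With the GC-content offset that median was 0.02. Of these 245 genes, 49 were called higher and 20 lower, where 19.8% of all tested genes were called higher and 19.5% lower. TAP2, which also lies in the 2.37 Mb stretch, was not called (log2 fold change 0.27, SE 0.113, edgeR adjusted p = 0.082). Nor were B2M and NLRC5, the tested genes on other chromosomes. The calls were not equally stable. PSMB9 kept its call in 9 of 16 alternative settings (adjusted p up to 0.169), and HLA-C went from 0.61 to 0.28 on the log2 scale and lost its call with the GC-content offset (adjusted p = 0.0519). PSMB8, a subunit of the immunoproteasome, rose by 1.09 (SE 0.194, edgeR adjusted p = 0.00138), and TAP1, a peptide transporter, had 37.6, 35.3 and 36.3 TPM in WT and 56.6, 60.1 and 54.9 TPM in DKK1-SE-/- cells (log2 fold change 0.81, SE 0.109, edgeR adjusted p = 0.000273). B2M was not called, at -0.16 (SE 0.169).

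The receptor genes IFNAR2, IL10RB, IFNAR1 and IFNGR2 lie within 274 kb on chromosome 21, and all 4 fell. Within 5 Mb of them, 52 other genes that are not members were tested, with a median log2 fold change of -0.47. Of these, 25 were called lower and 2 higher, where 19.5% of all tested genes were called lower and 19.8% higher. The chromosome 21 median was 0.03. IFNGR1, on chromosome 6, fell as well.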
